A study of Mus musculus with 5 samples.

Results

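The 9 genes described here, Insr, Grb14, Irs1, Irs2, Pik3ip1, Sgk1, Sgk3, Foxo1 and Foxo3, carry or limit the insulin signal between the cell surface and the FOXO transcription factors. They were picked by name with earlier results of these data known. All 9 were present among the 31053 genes of every count matrix, and they were followed across granulosa stages, mesenchymal subtypes and ages. The matrices came from whole ovaries of untreated C57BL/6J mice at 2, 3, 4, 5 and 6 wk, with 1 single-cell library per age. Ovaries were dissociated with trypsin and prepared with 10x Genomics 3′ v3.1 kits, which count each captured mRNA molecule by a unique molecular identifier (UMI). The number of animals behind a library is not given in the sources used here, so no value below has a replicate, and age, library and individual animals cannot be told apart. The 9 genes had between 6364 UMIs (Sgk3) and 196285 UMIs (Grb14) over all 48163 cells.

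Insulin and the related growth factors bind a receptor tyrosine kinase, which phosphorylates the IRS adaptor proteins; these recruit PI3K, whose lipid product activates the kinases AKT and SGK. Both kinases phosphorylate FOXO factors, which then leave the nucleus, so that genes of growth arrest and stress resistance that FOXO drives are less transcribed. In the ovary this pathway is known for its part in the activation of primordial follicles, in the response of granulosa cells to gonadotropins and in androgen production by theca cells. The mRNA levels given here do not report phosphorylation or the place of a protein in the cell.

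In GRCm38, the build of the count tables, Insr (ENSMUSG00000005534) lies at chr8:3122061-3279617 and encodes the insulin receptor. Grb14 (ENSMUSG00000026888) at chr2:64912476-65024987 encodes an adaptor that binds the active receptor and inhibits its kinase. The adaptor genes Irs1 (ENSMUSG00000055980) and Irs2 (ENSMUSG00000038894) lie at chr1:82233101-82291416 and chr8:10984681-11008458. Pik3ip1 (ENSMUSG00000034614), whose membrane protein inhibits PI3K, is at chr11:3330401-3342971. The kinase genes Sgk1 (ENSMUSG00000019970) and Sgk3 (ENSMUSG00000025915) are at chr10:21882184-21999903 and chr1:9798107-9900845. Foxo1 (ENSMUSG00000044167) is at chr3:52268336-52353221 and Foxo3 (ENSMUSG00000048756) at chr10:42181841-42276755. Gm38034 overlaps Foxo1 on the same strand, and the effect of this overlap on the Foxo1 counts was not tested.

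Promoter sequences are shown for the members that differed most between granulosa stages and for both IRS genes, whose promoters share a pair of short words. In 300-base RefSeq windows around the start sites (GRCm38.p6, 32851 windows), 7 of the 9 genes had an entry. The insulin response word TGTTTTG, searched on both strands, occurred in 6.28% of all windows and, among the members, in those of Irs1 and Irs2. The E-box CACGTG occurred in 7.15% of the windows, including those of Irs1 and Irs2 and 1 window of Sgk1. The forkhead word TGTTTAC, present in 3.65% of windows, was not among the letters of the members' windows. The E-box followed by TGTTTTG, on either strand and sharing letters or within 5 bases, occurred in 9 windows, which is 0.0274% of all. The Irs1 and Irs2 windows were among them. The opposite order of the words was not counted, and this pattern was chosen after the sequences had been seen. The 150 bases before the annotated start site follow, 5′ to 3′ on the gene's strand, with both words in capitals; the Irs1 window lies at chr1:82291440-82291589 (minus strand), Irs2 at chr8:11008930-11009079 (minus), Grb14 at chr2:65022767-65022916 (minus), Pik3ip1 at chr11:3330581-3330730 (plus) and Foxo1 at chr3:52268187-52268336 (plus).
Irs1: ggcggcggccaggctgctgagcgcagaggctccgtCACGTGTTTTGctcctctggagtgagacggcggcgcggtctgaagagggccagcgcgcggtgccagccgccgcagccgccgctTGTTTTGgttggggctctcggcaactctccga
Irs2: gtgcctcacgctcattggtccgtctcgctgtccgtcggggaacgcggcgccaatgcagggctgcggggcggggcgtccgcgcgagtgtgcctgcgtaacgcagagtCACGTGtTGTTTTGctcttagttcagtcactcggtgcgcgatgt
Grb14: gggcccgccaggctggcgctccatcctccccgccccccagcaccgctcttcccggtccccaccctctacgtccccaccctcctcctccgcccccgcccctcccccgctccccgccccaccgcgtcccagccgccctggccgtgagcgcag
Pik3ip1: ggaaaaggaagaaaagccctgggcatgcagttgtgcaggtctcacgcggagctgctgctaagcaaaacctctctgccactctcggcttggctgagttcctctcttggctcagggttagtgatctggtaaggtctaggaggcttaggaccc
Foxo1: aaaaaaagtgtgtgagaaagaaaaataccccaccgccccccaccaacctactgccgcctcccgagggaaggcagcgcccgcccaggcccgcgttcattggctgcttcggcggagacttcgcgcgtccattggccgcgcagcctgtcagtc
In Irs1 the E-box starts 115 bases before the start site and shares its last letters with TGTTTTG, which starts 111 bases before it, and a second TGTTTTG starts 32 bases before it. In Irs2 the E-box starts 44 bases and TGTTTTG 37 bases before the start site.

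The libraries held 7779 to 11077 cells and 93438618 to 144609431 UMIs, with a median of 9056 to 12424 UMIs per cell; 273 barcodes occurred in 2 libraries. The 2, 3 and 4 wk matrices were made with Cell Ranger 3.1.0 and the 5 and 6 wk matrices with version 6.0.1, so software and age move together. Cells were clustered anew, with the 9 genes and a list of 90 other pathway genes kept out of the clustering, and clusters were named from marker lists that hold none of them. This gave 18154 granulosa-like and 13601 stromal-like cells, with 4189 resembling smooth muscle and 1517 resembling theca, besides smaller classes. No cluster of germ cells was found, so oocytes are not described. The names rest on rebuilt clusters and may differ from those of the study. Levels are given as CPM, that is, relative to the sum of UMIs that a group of cells had in 1 library, and intervals are 95% exact Poisson or conditional intervals that cover counting error only. Levels of different genes are not compared, since a 3′ count depends on how each transcript is captured. Remodeling-like granulosa cells, the cells of regressing follicles in the study's terms, were few in the young libraries, with 63 cells at 2 wk and 111 at 3 wk against 738 to 1289 later, and 1 of their 2 clusters had no cell at 2 wk.

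**Figure D1:**
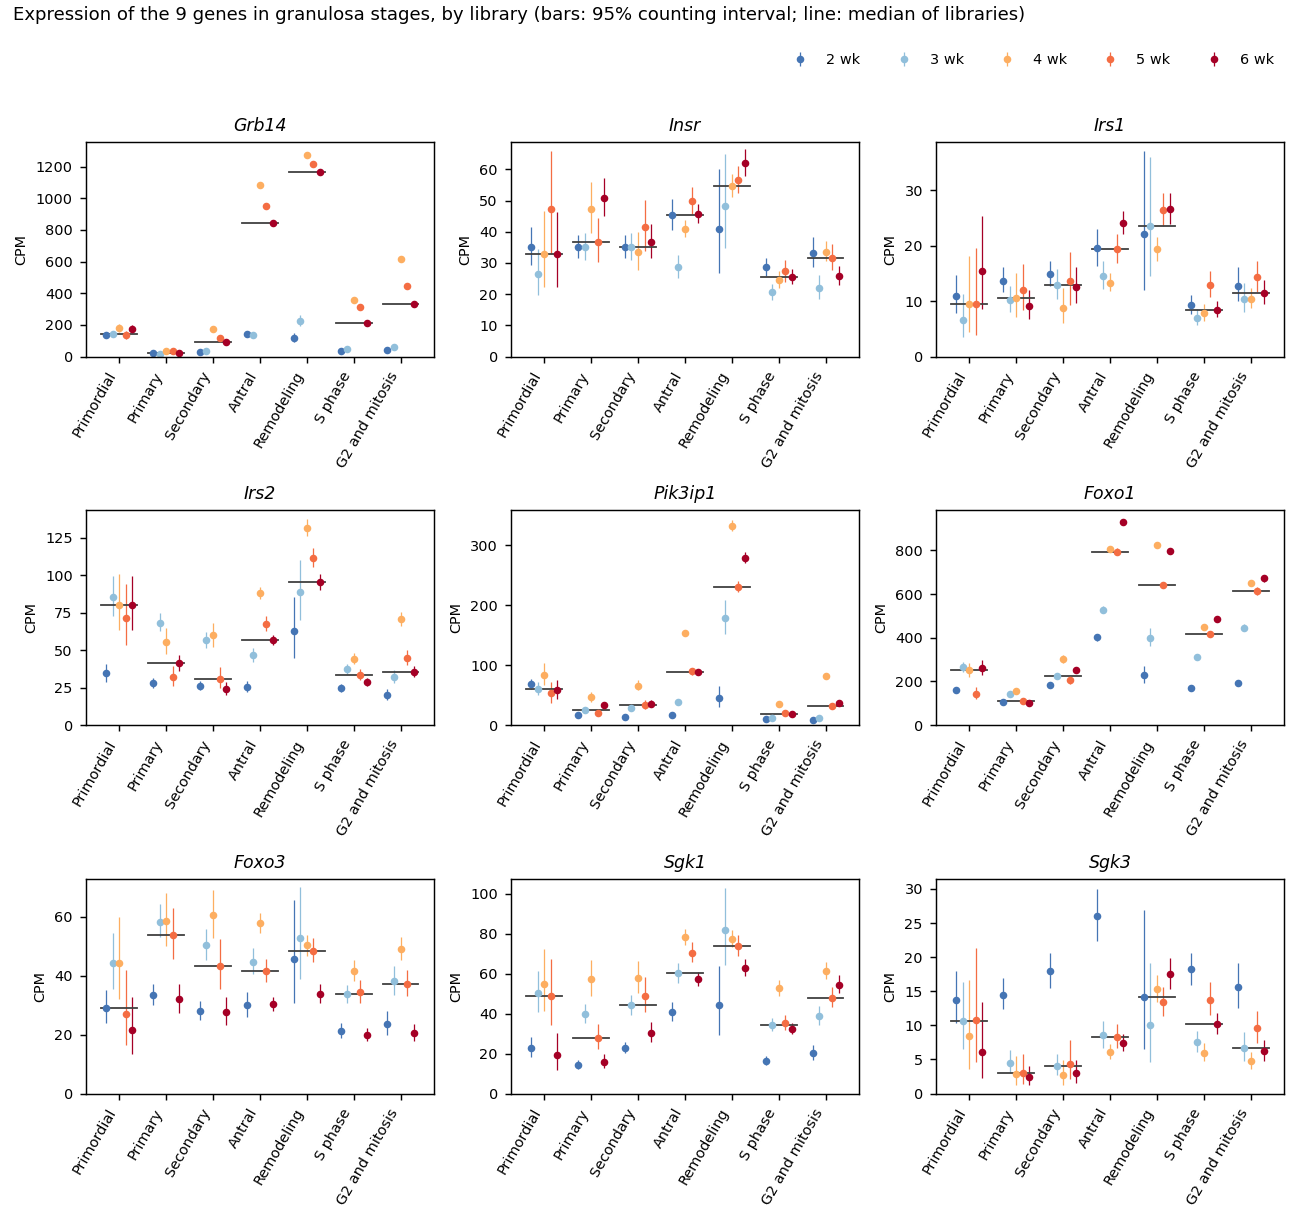
Level of each of the 9 genes (vertical axis, CPM, own scale per gene) in each granulosa stage (horizontal axis) and library (points, coloured by age, with 95% counting intervals and a line at the median of the 5 libraries). Grb14, Foxo1 and Pik3ip1 stand highest in antral-like or remodeling-like cells of the 4, 5 and 6 wk libraries, while Insr and Irs1 are highest in remodeling-like and low in S phase cells.

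Insr was highest in remodeling-like and lowest in S phase granulosa cells. Its level in secondary-like cells was 35.1 CPM at 2 wk, 35.0 at 3 wk, 33.5 at 4 wk, 41.4 at 5 wk and 36.8 at 6 wk. Antral-like cells held 45.3, 28.7, 40.9, 49.9 and 45.8 CPM in the same order, and remodeling-like cells 41.0, 48.2, 54.7, 56.6 and 62.1 CPM. The antral-like range contained the secondary-like one, and every remodeling-like value except that at 2 wk lay above the secondary-like range. Remodeling-like cells had the highest median of the stages, and neighbouring stages in the order of medians overlapped. Granulosa cells in S phase held 28.6, 20.6, 24.7, 27.3 and 25.5 CPM of Insr, wholly below the remodeling-like range. S phase cells had more UMIs each in every library, so a lower CPM in them, here or for another gene, need not be a lower level per cell. A median of 40.7% of S phase and 45.2% of remodeling-like cells had an Insr UMI. After thinning every cell to 5000 UMIs these shares were 12.0% and 23.5%.

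Grb14, the inhibitory adaptor at the receptor, was low in secondary-like cells, at 28.0, 33.5, 176, 119 and 89.5 CPM from 2 to 6 wk. In antral-like cells it was 141, 138, 1087, 954 and 843 CPM. In remodeling-like cells it was 117, 227, 1276, 1218 and 1163 CPM. In each library the antral-like level was therefore well above the secondary-like one, and within antral-like and remodeling-like cells the 4, 5 and 6 wk libraries stood apart from the 2 and 3 wk libraries. Primordial-like cells had another pattern: 135, 142, 179, 134 and 173 CPM, with little difference between ages. Primary-like cells held the lowest levels, 20.8, 14.7, 34.0, 38.2 and 23.3 CPM, and did not overlap the primordial-like ones. Cycling granulosa cells followed the age split as well, with 33.4, 49.7, 358, 313 and 212 CPM in S phase and 40.3, 58.8, 618, 449 and 334 CPM in G2 and mitosis. The mix of S phase clusters differed between ages. The S phase cluster that shared the leading genes Calb1 and Gldn with a primary-like cluster held 45.0% of S phase cells at 2 wk and 18.2% at 4 wk. The part of this mixture in the age split was not tested. After thinning every cell to 5000 UMIs, the median share of cells with a Grb14 UMI was 22.6% in secondary-like, 86.5% in antral-like and 90.4% in remodeling-like cells (47.2%, 95.02% and 96.7% unthinned). In hematopoietic-like cells, used here as a gauge of free RNA, the share was 13.7% (20.6% unthinned).

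Irs1 and Irs2, the adaptors that link the receptor to PI3K, behaved differently. Irs1 was 14.8, 12.8, 8.76, 13.5 and 12.6 CPM in secondary-like cells, 19.5, 14.5, 13.3, 19.3 and 24.1 CPM in antral-like cells and 22.1, 23.6, 19.3, 26.3 and 26.6 CPM in remodeling-like cells. Its remodeling-like values all lay above the secondary-like range, while antral-like values overlapped both. In S phase it was 9.33, 6.97, 7.79, 12.9 and 8.45 CPM and in primordial-like cells 10.9, 6.60, 9.52, 9.48 and 15.4 CPM, both below the remodeling-like range. Irs2 in secondary-like cells was 26.1, 56.5, 60.02, 31.1 and 24.2 CPM from 2 to 6 wk, and in antral-like cells 25.6, 46.5, 88.1, 67.7 and 56.7 CPM. In remodeling-like cells it was 63.0, 88.6, 132, 112 and 95.3 CPM, each above every secondary-like value. Primordial-like cells held 34.6, 85.3, 80.4, 71.8 and 79.96 CPM of Irs2, so that the 2 wk library was low and the other libraries similar.

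Pik3ip1, the inhibitor of PI3K, was highest in remodeling-like cells of the 3 to 6 wk libraries and in primordial-like cells at 2 wk. The study used it as a marker of remodeling, so that order is no independent result. Its remodeling-like level was 45.7, 179, 333, 231 and 279 CPM from 2 to 6 wk. Antral-like cells held 16.6, 37.8, 153, 89.7 and 89.3 CPM and secondary-like cells 12.8, 29.2, 65.9, 34.2 and 35.3 CPM. Within each library the order was secondary-like, antral-like, remodeling-like, although the ranges over libraries overlapped, the 2 wk library being low in all of these stages. Primordial-like cells departed from this age pattern with 68.4, 60.4, 83.5, 52.8 and 58.4 CPM, the 2 wk value being the second highest. Primary-like cells held 16.3, 24.7, 46.2, 19.4 and 33.7 CPM.

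The SGK kinases, which act beside AKT below PI3K, were lower in secondary-like than in antral-like cells. Sgk1 was 22.9, 44.1, 57.9, 49.0 and 30.5 CPM in secondary-like, 40.9, 60.2, 78.2, 70.5 and 57.2 CPM in antral-like and 44.1, 81.9, 77.4, 73.9 and 62.8 CPM in remodeling-like cells. The secondary-like value was the lowest of these stages in every library, but the ranges over libraries overlapped. Sgk3 was 17.9, 4.00, 2.66, 4.38 and 2.94 CPM in secondary-like cells and 26.0, 8.52, 6.11, 8.27 and 7.44 CPM in antral-like cells. In both stages the 2 wk library stood above the others, and among the later libraries every antral-like value lay above every secondary-like one. Remodeling-like cells held 14.2, 10.1, 15.4, 13.3 and 17.5 CPM of Sgk3, without the high 2 wk value, although only 9 UMIs stood behind each of the 2 and 3 wk levels.

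Foxo1, the FOXO factor most studied in granulosa cells, was 182, 224, 301, 206 and 253 CPM in secondary-like cells and 402, 529, 807, 794 and 928 CPM in antral-like cells. These ranges did not overlap. Remodeling-like cells held 230, 400, 826, 642 and 797 CPM, primary-like cells 104, 142, 156, 112 and 102 CPM and primordial-like cells 162, 265, 251, 144 and 262 CPM. Antral-like cells had the highest median, and the primary-like range lay wholly below the secondary-like one. Foxo3, the FOXO factor known for holding primordial oocytes dormant, did not order the secondary-like, antral-like and remodeling-like stages in the same way in every library. It was 28.0, 50.3, 60.6, 43.4 and 27.7 CPM in secondary-like, 29.99, 44.8, 57.7, 41.7 and 30.3 CPM in antral-like and 45.7, 52.7, 50.3, 48.5 and 33.9 CPM in remodeling-like cells. In secondary-like and antral-like cells alike the 3 and 4 wk libraries were highest and the 2 and 6 wk libraries lowest. Other stages kept an order: primary-like cells, at 33.5, 58.4, 58.5, 53.9 and 32.0 CPM, lay above primordial-like cells, at 29.1, 44.2, 44.4, 27.1 and 21.5 CPM, in each library. S phase cells, at 21.3, 33.6, 41.6, 34.5 and 19.9 CPM, lay below antral-like cells in each library. They had more UMIs each, a median of 22382 against 14920.5 at 2 wk and 25682.5 against 16917 at 6 wk. A median of 45.1% of S phase and 40.2% of antral-like cells had a Foxo3 UMI. After thinning every cell to 5000 UMIs these shares were 15.4% and 18.5%, with overlapping ranges. The lower CPM thus does not show a lower level per cell.

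**Figure D2:**
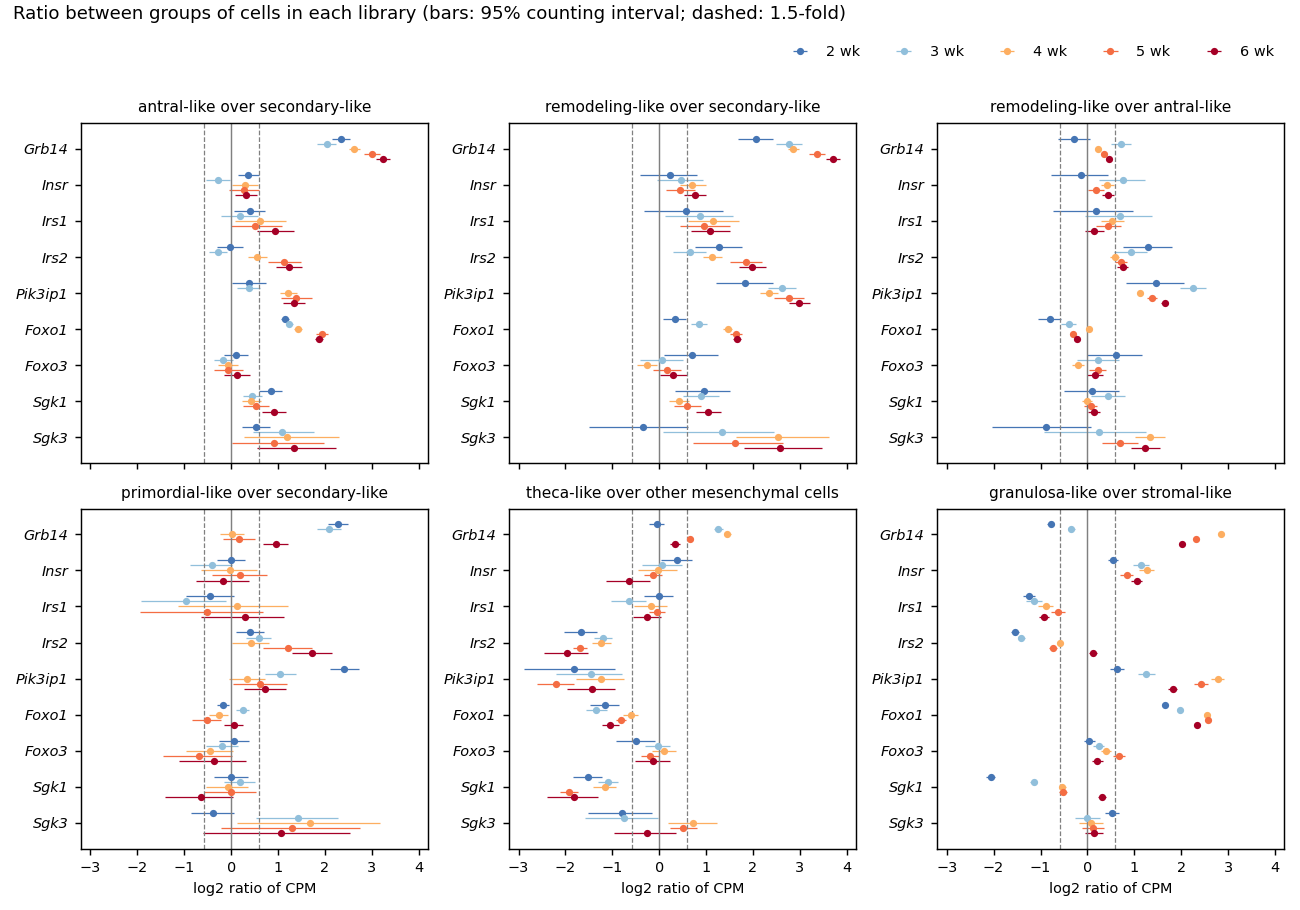
Ratio of CPM between cell groups for each gene in each library (log2 scale, points coloured by age) in 6 comparisons, with dashed lines at 1.5-fold in either direction. All 5 points of Grb14 and Foxo1 lie beyond the upper line for antral-like over secondary-like cells, and all 5 points of Irs2, Pik3ip1, Foxo1 and Sgk1 lie beyond the lower line for theca-like cells.

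To ask which of these differences held in every library, a gene was called when the ratio of its levels was at least 1.5-fold in the same direction in all 5 libraries. For antral-like over secondary-like cells 2 of the 9 genes were called higher, against 2.10% higher and 4.44% in either direction of the 11002 genes with enough counts. Grb14 was 5.05-fold (4.43 to 5.75), 4.11-fold (3.58 to 4.74), 6.18-fold (5.72 to 6.69), 8.04-fold (7.17 to 9.05) and 9.42-fold (8.56 to 10.4) higher at 2, 3, 4, 5 and 6 wk. Foxo1 was 2.20-fold, 2.37-fold, 2.68-fold, 3.85-fold and 3.67-fold higher. Both ratios were higher at 5 and 6 wk than in the younger libraries. Irs2 had ratios of 0.981, 0.823, 1.47, 2.18 and 2.35, so that it was not higher in antral-like cells of the youngest ages, and Pik3ip1 had 1.30, 1.29, 2.33, 2.62 and 2.53. Sgk3 missed the limit in the 2 wk library alone, with 1.45 (1.18 to 1.78) there and 1.89 to 2.53 at the other ages. Insr ranged from 0.820 to 1.29 and Foxo3 from 0.890 to 1.09. The median ratio of the 9 genes was 1.47, beside 0.980 over all genes tested. Since the 9 genes were chosen with earlier results of these data known, these medians are descriptions. Of the 77 other pathway genes with enough counts, 2 were called higher and 1 lower: the ubiquitin ligase gene Fbxo32 (median ratio 2.93), the cell cycle inhibitor gene Cdkn1a (2.18) and the FOXO family member Foxo6 (0.203).

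For remodeling-like over secondary-like cells 3 of the 9 genes were called higher, against 2.85% of 10311 genes (1.88% lower, 4.73% in either direction). The ratios of Grb14 were 4.17 (3.19 to 5.39), 6.77, 7.26, 10.3 and 13.0 from 2 to 6 wk. Pik3ip1 had 3.57 (2.31 to 5.35), 6.14, 5.05, 6.75 and 7.92, and Irs2 had 2.42 (1.69 to 3.37), 1.57 (1.22 to 2.00), 2.19, 3.59 and 3.95. The call of Grb14 held under every alternative, whereas those of Pik3ip1 and Irs2 were lost when pathway genes were kept among the variable genes (median ratios 2.78 and 2.11) or libraries were merged without integration, and that of Irs2 also with TMM scaling (2.32). Foxo1 missed the limit only at 2 wk, with 1.26 (1.06 to 1.49) there and 1.79, 2.74, 3.11 and 3.15 after. Irs1 likewise missed it at 2 wk with 1.49 (0.796 to 2.57), from 14 UMIs, and had 1.84, 2.20, 1.95 and 2.11 after, while Sgk3 had 0.791, 2.53, 5.79, 3.05 and 5.96. Without the 2 wk library, 6 genes were called, the further ones being Irs1, Foxo1 and Sgk3. The rule is then looser for every gene, and the share of all genes called under it was not taken. Of 74 other pathway genes 11 were called higher and none lower, and 8 of these 11 belonged to the 22 FOXO response genes with enough counts. Cdkn1a (median ratio 5.54), the transcriptional coregulator gene Cited2 (3.00), the growth arrest gene Gadd45a (2.83) and the repressor gene Bcl6 (2.16) were among them. Grb10 (5.07), a close relative of Grb14, and the cytokine signalling inhibitor Socs3 (2.64) were also among the genes called. A sum of 12 immediate early and heat shock genes, which mark handling stress, was taken as well. It was 10202.5, 12111, 7956, 10530 and 6661 CPM in remodeling-like cells from 2 to 6 wk. In secondary-like cells it was 4504, 6059, 6832, 9518 and 5823 CPM, and the part of handling in the ratios was not tested.

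Set against antral-like cells, remodeling-like cells differed in 1 of the 9 genes, against 3.65% of 10342 genes called higher and 5.74% in either direction. Pik3ip1 was 2.75-fold (1.76 to 4.16), 4.75-fold (3.91 to 5.75), 2.17-fold (2.08 to 2.27), 2.58-fold (2.40 to 2.78) and 3.13-fold (2.96 to 3.31) higher. Irs2 just missed the limit, with 2.46, 1.91, 1.49, 1.65 and 1.68, and the 4 wk library decided this: without it both Irs2 and Pik3ip1 were called. Foxo1 was lower or alike in remodeling-like cells, at 0.572, 0.757, 1.02, 0.809 and 0.859 of the antral-like level. Grb14 had ratios of 0.826 (0.643 to 1.05), 1.64 (1.41 to 1.91), 1.17, 1.28 and 1.38, so that it was higher in remodeling-like cells at 3 to 6 wk but past 1.5-fold at 3 wk alone. Sgk3 had 0.545 and 1.19 at 2 and 3 wk and 2.52, 1.61 and 2.36 at 4, 5 and 6 wk. Of 74 other pathway genes 6 were called higher and none lower, among them the PI3K regulatory subunit gene Pik3r1 (median ratio 1.86), Socs3 (3.07) and Gadd45a (2.66). The summed stress genes were 7024, 9291, 7712, 9360 and 6283 CPM in antral-like cells from 2 to 6 wk. These values lay below the remodeling-like ones given above in each library, and the part of handling was not tested.

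Between primordial-like and secondary-like cells no member was called of the 8 with enough counts, against 5.32% of 9085 genes called higher and 6.89% in either direction. Pik3ip1 came nearest, with ratios of 5.34, 2.07, 1.27, 1.54 and 1.66, and it was called when the 4 wk library was left out. Grb14 was higher in primordial-like cells of the younger libraries, 4.84-fold (4.19 to 5.59) at 2 wk and 4.23-fold (3.55 to 5.04) at 3 wk, and closer to the secondary-like level afterwards, with ratios of 1.02, 1.13 and 1.94. Irs2 had ratios of 1.33, 1.51, 1.34, 2.31 and 3.31. Foxo1 did not separate these stages, at 0.887, 1.19, 0.833, 0.696 and 1.04. Of 70 other pathway genes 6 were called higher and none lower, including Cdkn1a (median ratio 7.54), Socs3 (4.95), Gadd45a (3.79) and the cell cycle inhibitor gene Cdkn1b (3.38). The summed stress genes were 11749, 11401, 10773, 15804 and 11817 CPM in primordial-like cells from 2 to 6 wk. These values lay above the secondary-like ones given above in each library, and the part of handling was not tested.

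**Figure D3:**
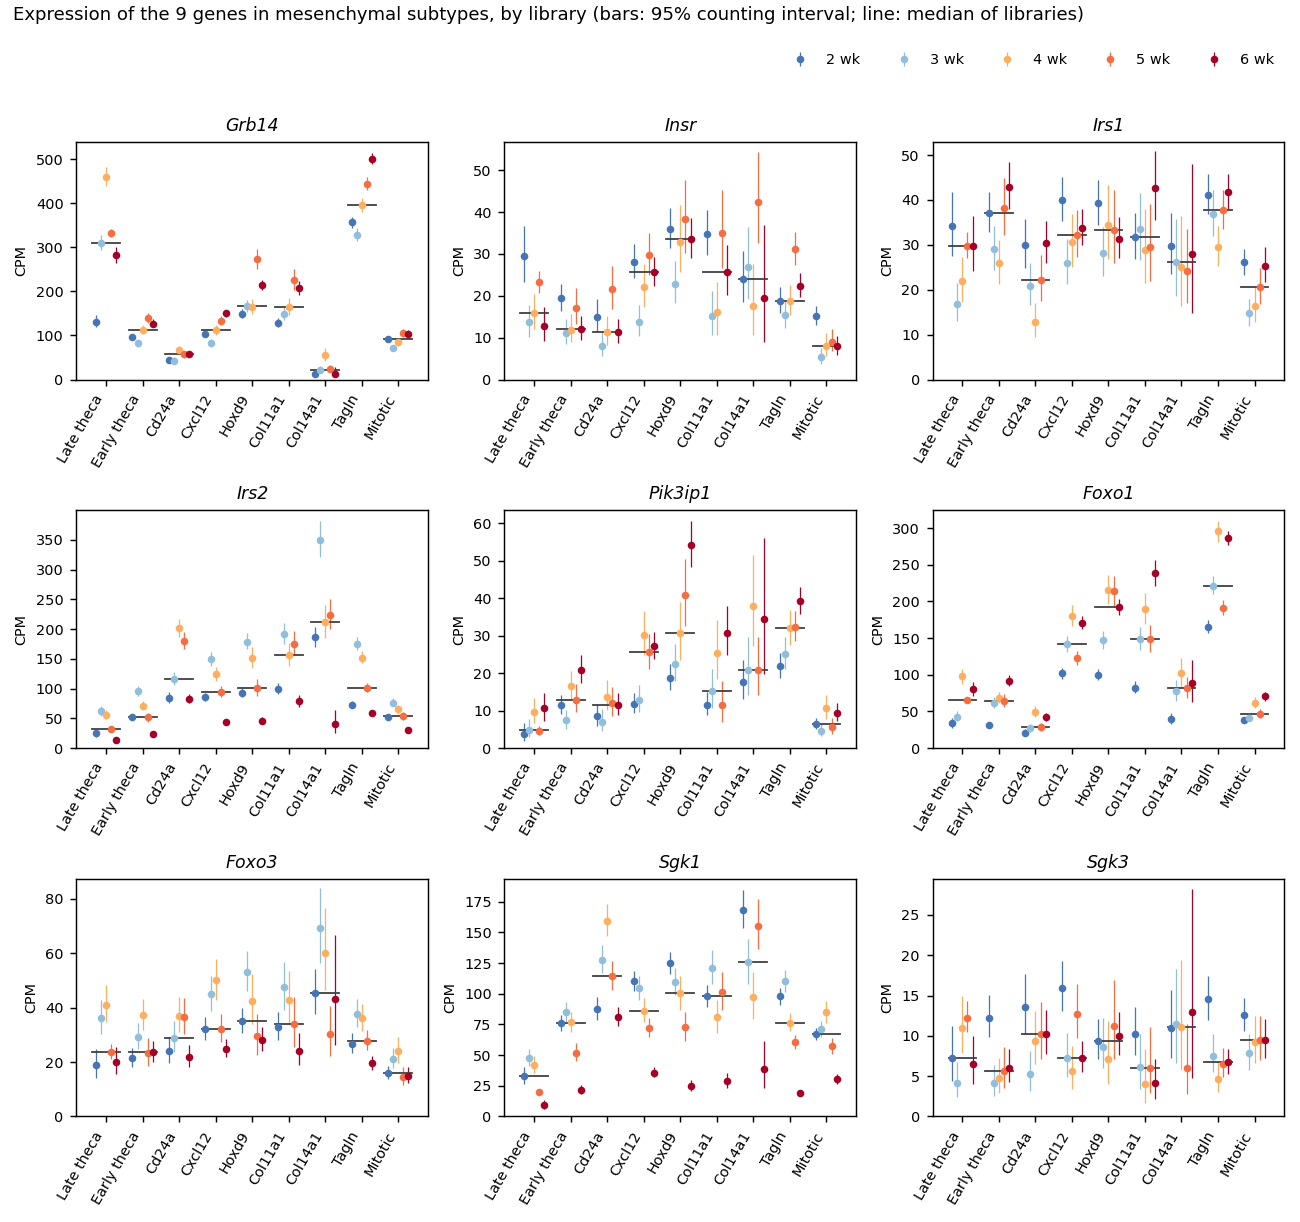
Level of each of the 9 genes (vertical axis, CPM, own scale per gene) in each mesenchymal subtype (horizontal axis), named by its marker gene or as theca, with 1 point per library, 95% counting intervals and a line at the median. Late theca-like cells are low for Irs2, Pik3ip1 and Sgk1, and Tagln-like cells are high for Grb14 and Foxo1.

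Among mesenchymal cells the members marked out different subtypes. Grb14 was 356, 329, 395, 444 and 501 CPM in Tagln-like cells, a smooth muscle-like group, and 12.8, 22.2, 55.6, 24.2 and 12.9 CPM in Col14a1-like cells, a fibroblast-like group, without overlap. Cd24a-like cells held 44.1, 43.2, 67.8, 57.1 and 57.2 CPM of Grb14. Foxo1 was also high in Tagln-like cells, at 166, 222, 296, 192 and 286 CPM, and low in Cd24a-like cells, at 21.1, 27.5, 49.5, 28.3 and 42.6 CPM. Both genes had their highest median among the named subtypes in Tagln-like cells and their lowest in different ones. Irs1 was 41.1, 36.9, 29.5, 37.7 and 41.8 CPM in Tagln-like cells and 37.1, 29.0, 25.9, 38.1 and 42.96 CPM in early theca-like cells, which overlapped. Irs2 reached 187, 350, 211 and 224 CPM in Col14a1-like cells of the 2 to 5 wk libraries but only 41.0 CPM at 6 wk. The 6 wk library thus stood apart in this subtype. Sgk1 in Cd24a-like cells was 87.4, 128, 160, 115 and 81.4 CPM. Insr was lowest in cycling mesenchymal cells, at 15.1, 5.37, 8.11, 9.08 and 7.96 CPM, beside 35.9, 22.9, 33.0, 38.2 and 33.6 CPM in Hoxd9-like cells. Cycling cells had more UMIs each, a median of 19987.5 against 8534 at 2 wk, so this order in CPM is not an order of levels per cell.

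Late theca-like cells were named from markers that include genes of steroid production, and the study counts interstitial gland cells with its theca cells. Late theca-like cells were low in 4 members when compared with all other mesenchymal cells, against 12.2% of 12670 genes called lower and 16.2% in either direction. Irs2 was 24.7, 62.1, 55.3, 32.4 and 12.7 CPM in them and 78.7, 143, 130, 105 and 49.7 CPM in the others, which gave ratios of 0.314 (0.244 to 0.399), 0.434, 0.425, 0.310 and 0.256. Sgk1 was 33.1, 47.8, 41.9, 19.7 and 9.31 CPM against 95.4, 101, 93.7, 74.5 and 32.9 CPM, with ratios of 0.347, 0.472, 0.447, 0.264 and 0.283. For both genes the 6 wk library was the lowest in either group, and within each library the theca-like value was below the other by more than 2-fold. Pik3ip1 was 3.64, 4.91, 9.59, 4.53 and 10.6 CPM against 12.9, 13.5, 22.8, 20.7 and 28.4 CPM. Foxo1 was 33.8, 42.9, 97.8, 65.5 and 80.1 CPM against 75.5, 109, 149, 115 and 165 CPM. The ranges of Foxo1 overlapped between the groups, both being low at 2 wk, whereas those of Pik3ip1 did not overlap. Low Foxo1 was not particular to late theca-like cells, since the Cd24a-like levels given above were lower in every library. Low Pik3ip1 was not particular to them either. After thinning to 5000 UMIs, a median of 2.61% (1.78% to 5.18% over libraries) of late theca-like cells had a Pik3ip1 UMI. This share was 3.53% (1.96% to 4.83%) in cycling mesenchymal and 5.85% (3.23% to 6.51%) in Cd24a-like cells (9.44%, 11.3% and 11.6% unthinned). Thinned to 5000 UMIs per cell, a median of 24.2% of late theca-like and 25.9% of early theca-like cells had a Foxo1 UMI (53.2% and 44.4% unthinned). The late theca-like levels of Pik3ip1 at 4, 5 and 6 wk and of Foxo1 at 3, 4 and 6 wk were no higher than the levels in hematopoietic-like cells, the gauge of free RNA, relative to granulosa-like cells. Grb14 differed from these genes: it was 132, 311, 460, 333 and 283 CPM in late theca-like cells, with ratios of 0.961, 2.39, 2.74, 1.58 and 1.26. Irs1 had ratios from 0.639 to 0.993.

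Of 80 other pathway genes, 10 were called lower and 3 higher in late theca-like cells, beside 12.2% and 4.00% of all genes tested. The lower ones included Slc2a4, which encodes the insulin-responsive glucose transporter (median ratio 0.0260), Enpp1, a known inhibitor of the insulin receptor (0.0872), the PI3K subunit genes Pik3c2b (0.212) and Pik3r1 (0.298), and the lipid phosphatase gene Inpp4b (0.356). The higher ones were the pseudokinase gene Trib2 (6.27), Pdk4, which restrains pyruvate use in mitochondria (2.81), and the lipid phosphatase gene Inppl1 (1.98). The summed level of 12 immediate early and heat shock genes, which mark handling stress, was 8483 CPM at 2 wk, 11593 at 3 wk, 13675 at 4 wk, 13751 at 5 wk and 7897 at 6 wk in late theca-like cells. In Tagln-like cells it was 16655, 23035, 23156, 23341 and 20057 CPM in the same order. The other named subtypes also held more at each age, except Cd24a-like cells at 3 wk and cycling mesenchymal cells at 3, 4 and 5 wk. Sgk1 is itself known to be induced by stress; the part of handling in its level was not tested.

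**Figure D4:**
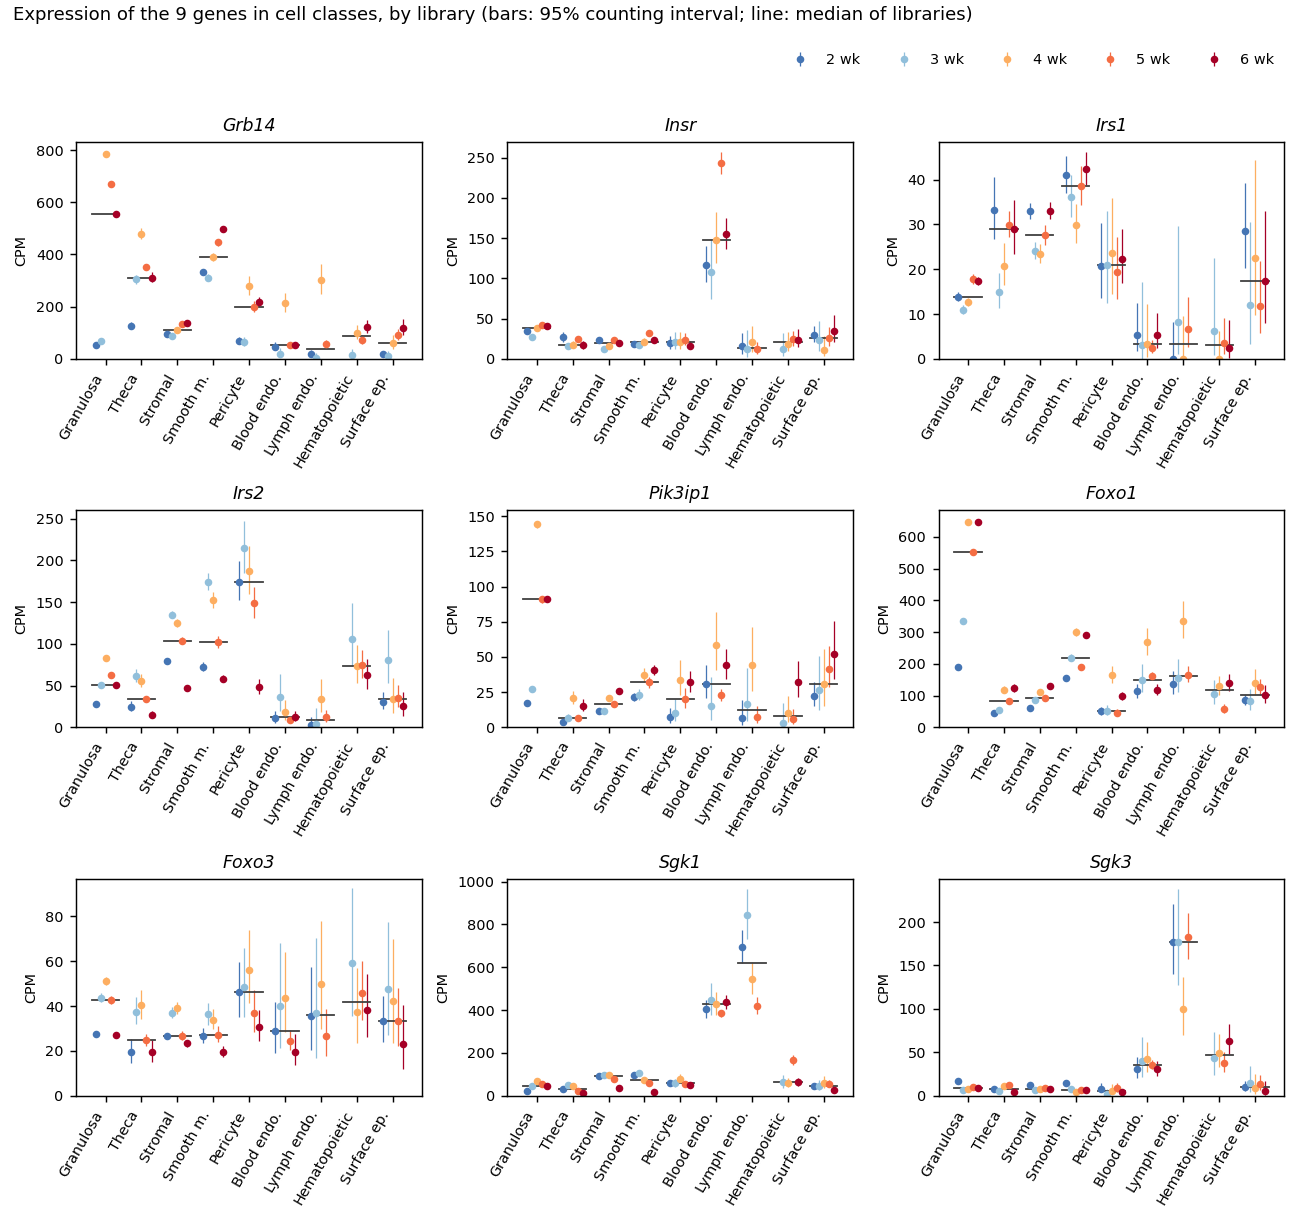
Level of each of the 9 genes (vertical axis, CPM, own scale per gene) by cell class (horizontal axis), with 1 point per library, 95% counting intervals and a line at the median. Blood endothelial-like cells stand apart for Insr, both endothelial classes for Sgk1 and lymphatic endothelial-like cells for Sgk3.

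Across classes, the receptor gene Insr was highest in blood endothelial-like cells, at 116, 107, 148, 243 and 155 CPM. This range lay above that of every other class, for example 34.4, 27.5, 38.8, 41.7 and 40.6 CPM in granulosa-like cells. Lymphatic endothelial-like cells were low, at 15.5 CPM (6.23 to 31.9) at 2 wk and 12.4 CPM (6.62 to 21.3) at 5 wk. The 2 kinds of endothelium therefore differed in the receptor gene. Irs1 was low in endothelial-like and hematopoietic-like cells. In blood endothelial-like cells it was 5.34, 3.07, 3.36, 2.35 and 5.37 CPM, below every granulosa-like value (13.8, 11.0, 12.7, 17.8 and 17.4 CPM) and far below smooth muscle-like cells (41.0, 36.1, 29.9, 38.5 and 42.3 CPM). Irs2 had its highest median in pericyte-like cells, the cells that wrap small vessels, at 175, 215, 187 and 148 CPM from 2 to 5 wk, though only 48.0 CPM at 6 wk.

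The kinase genes had their highest medians in the endothelium. Sgk1 was 404, 448, 430, 385 and 438 CPM in blood endothelial-like cells, with little spread between ages, and 692, 842, 545 and 418 CPM in lymphatic endothelial-like cells at 2 to 5 wk, where the 6 wk value of 270 CPM rests on 14 cells. Both classes lay above stromal-like cells (93.5, 98.8, 97.9, 79.1 and 37.4 CPM). Sgk3 was 177, 177, 99.6, 183 and 193 CPM in lymphatic endothelial-like cells. The next class, hematopoietic-like cells, held 35.9, 43.8, 49.4, 37.6 and 63.5 CPM of Sgk3 and did not overlap it, and blood endothelial-like cells held 31.0, 39.9, 42.0, 35.6 and 30.4 CPM. Thinned to 5000 UMIs per cell, a median of 49.2% of lymphatic endothelial-like cells and 4.09% of granulosa-like cells had an Sgk3 UMI (59.6% and 13.6% unthinned). The class in which Sgk3 stood highest holds 230 cells in all.

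Granulosa-like cells were compared with stromal-like cells, the second most numerous class. Foxo1 and Pik3ip1 were called higher in granulosa-like cells, against 16.4% of 14067 genes, and Irs1 lower, against 14.4%; in either direction 30.8% were called. Foxo1 was 191, 334, 647, 552 and 645 CPM in granulosa-like and 60.5, 85.0, 110, 92.6 and 129 CPM in stromal-like cells, which gave ratios of 3.15 (3.02 to 3.29), 3.93, 5.89, 5.96 and 5.02. Pik3ip1 was 17.5, 27.0, 144, 90.9 and 90.9 CPM against 11.3, 11.3, 21.1, 16.9 and 25.9 CPM, with ratios of 1.55, 2.38, 6.84, 5.38 and 3.52. Irs1 had ratios of 0.420, 0.456, 0.541, 0.645 and 0.526. Grb14 lay on different sides at different ages: its granulosa-like level was 0.581 (0.554 to 0.609) and 0.790 (0.749 to 0.833) of the stromal-like level at 2 and 3 wk and 7.21-fold, 5.00-fold and 4.07-fold above it at 4, 5 and 6 wk. Stromal-like Grb14 itself changed less, at 93.9, 87.8, 109, 134 and 137 CPM, beside 54.6, 69.3, 786, 668 and 555 CPM in granulosa-like cells. At 4 and 6 wk the stromal-like level was 13.9% and 24.6% of the granulosa-like one. The hematopoietic-like shares, the gauge of free RNA, were 12.8% (9.74% to 16.5%) and 22.2% (18.1% to 26.9%). The part of free RNA in these stromal-like levels was not tested. The mix of stages in the granulosa-like class differed between ages: 63 of its 3102 cells at 2 wk and 1289 of 5218 at 4 wk were remodeling-like, and 464 and 1531 were antral-like. Insr was higher in granulosa-like cells of each library, 1.45-fold to 2.40-fold, and missed the limit at 2 wk alone.

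Of 81 other pathway genes, 11 were called higher and 7 lower in granulosa-like than in stromal-like cells, beside 16.4% and 14.4% of all genes tested. Among the higher ones were Igf1r, the receptor of insulin-like growth factor 1 (median ratio 2.45), the PI3K genes Pik3cg (22.6), Pik3r1 (4.68) and Pik3cb (3.24), and Mtor (1.71). Among the lower ones were the receptor inhibitors Grb10 (0.0332), Socs3 (0.118) and Socs1 (0.210) and the phosphatase gene Inpp4b (0.157). Grb10 and Grb14, inhibitors of the same family, were thus on opposite sides of this comparison from 4 wk on.

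**Figure D5:**
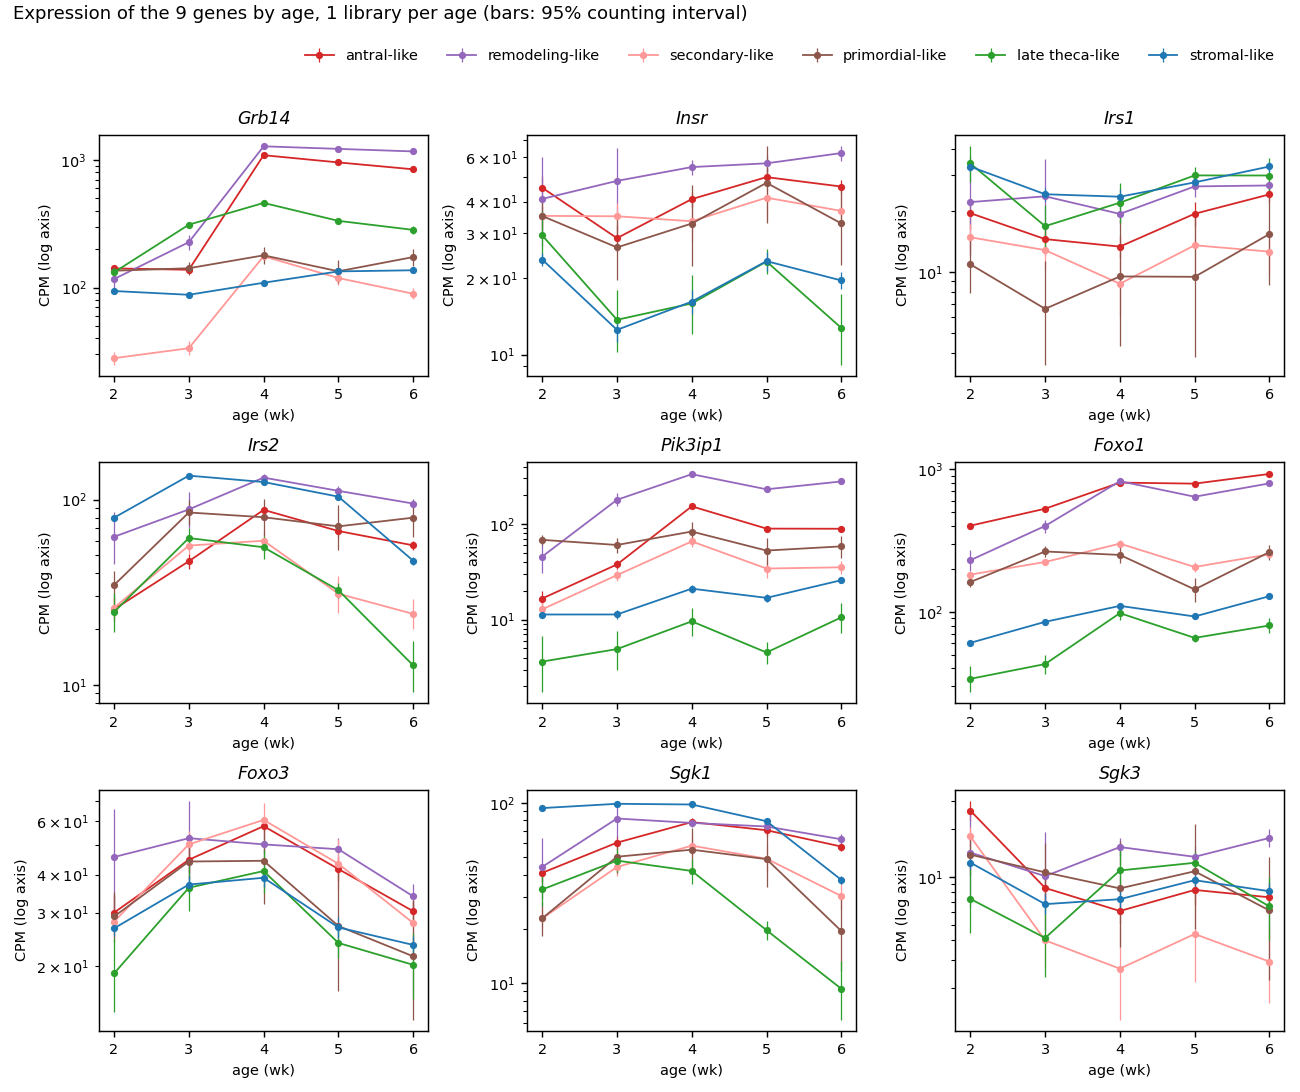
Level of each of the 9 genes (vertical axis, CPM, log scale) against age in weeks (horizontal axis) in antral-like, remodeling-like, secondary-like and primordial-like granulosa, late theca-like and stromal-like cells, with 95% counting intervals. Grb14 and Pik3ip1 are higher from 4 wk on in growing granulosa, while Grb14 in primordial-like cells is nearly level.

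The ages were compared because growing follicles at 2 wk belong to the first wave, which starts at birth, while by 5 wk follicles of the second wave have reached the antral stage. The study counted no antral follicles in whole ovaries up to 2 wk, although it took its antral clusters at 2 wk as first wave. Antral-like cells of the 2 ages may thus differ in follicle stage as well as in wave, which cannot be told apart. The study listed Grb14 among its genes that differ between these waves, so its direction is not independent evidence here. With 1 library per age there is no test; a gene was called when its level in the 5 wk library was past 2-fold of that in the 2 wk library. In antral-like cells 3 of the 9 genes were called higher, against 6.60% of 11970 genes, and 1 lower, against 5.83%. Grb14 was 6.75-fold (6.33 to 7.22) higher at 5 wk, Pik3ip1 5.39-fold (4.45 to 6.59) and Irs2 2.65-fold (2.25 to 3.13). Sgk3 was 0.318 (0.245 to 0.411) of its 2 wk level. Foxo1 came just short of the limit, at 1.97 (1.89 to 2.06), Sgk1 was at 1.72 (1.503 to 1.98) and Foxo3 at 1.39 (1.18 to 1.65), while Insr was at 1.10 and Irs1 at 0.993. Under the alternatives for this comparison Grb14 ranged from 2.90 to 6.91 and Pik3ip1 from 2.80 to 15.1, and the calls of Irs2 (1.97 with pathway genes kept among the variable genes) and Sgk3 (0.657 when merged without integration) were each lost under 1 of them. The largest step between neighbouring ages for Grb14 and Pik3ip1 lay between the 3 and 4 wk libraries, both made with Cell Ranger 3.1.0; the part of the software in the age differences was not tested. The median ratio of the 9 genes was 1.72, beside 0.976 over all genes tested. These medians are descriptions too, given how the 9 genes were chosen.

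Antral-like cells comprised 4 clusters whose mixture differed between ages, so the ratio was taken within each. Grb14 at 5 wk was 10.1-fold, 6.97-fold, 2.502-fold and 6.01-fold above 2 wk in them, and Pik3ip1 6.90-fold, 7.02-fold, 2.89-fold and 8.16-fold. Irs2 was 3.26-fold, 2.12-fold, 1.27-fold (0.766 to 2.15) and 3.73-fold higher, and Sgk3 was at 0.409, 0.386, 0.205 and 0.0701 (0.00762 to 0.315) of its 2 wk level. The last Sgk3 ratio rests on few UMIs, at 1.46 CPM in 109 cells at 5 wk. The direction of all 4 genes was the same in each cluster, although for Irs2 the interval included 1 in one of them. Antral-like cells had a median of 14920.5 UMIs per cell and 8.58% mitochondrial UMIs at 2 wk and 16678 UMIs and 6.75% at 5 wk.

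In secondary-like cells 3 of the 9 genes were past 2-fold higher at 5 wk, against 4.07% of 11389 genes, and 1 lower, against 6.28%. Grb14 was 4.24-fold (3.60 to 4.99), Pik3ip1 2.67-fold (2.02 to 3.52) and Sgk1 2.14-fold (1.71 to 2.67) higher, and Sgk3 was 0.244 (0.120 to 0.447) of its 2 wk level. Hematopoietic-like cells, the gauge of free RNA, held 10.8% of the granulosa-like level of Grb14 at 5 wk. The part of free RNA in the Grb14 ratio was not tested. The summed stress genes of secondary-like cells were 4504 CPM at 2 wk, 9518 at 5 wk and 5823 at 6 wk. The part of handling in the Sgk1 ratio was not tested. When libraries were merged without integration, Grb14 in secondary-like cells turned to 0.836, and the calls of Pik3ip1 (1.51) and Sgk1 (1.66) were lost. In primordial-like cells Grb14 did not take part, with a ratio of 0.9899 (0.790 to 1.23), and the 2 primary-like clusters differed, with 3.24 (2.36 to 4.45) in one and 0.939 (0.629 to 1.37) in the other. For primordial-like cells, Irs2 (2.08, interval 1.48 to 2.87) and Sgk1 (2.13, interval 1.40 to 3.17) were past 2-fold, with 74 cells at 5 wk. The share of all genes past 2-fold was not taken in this group. Its summed stress genes were 11749 CPM at 2 wk and 15804 CPM at 5 wk, and the part of handling was not tested. In the remodeling-like cluster that had cells at 2 wk, Grb14 was 8.97-fold and Pik3ip1 3.59-fold higher at 5 wk, with 63 cells at 2 wk.

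The same limit was applied to mesenchymal cells. In late theca-like cells Grb14 alone of the 9 genes was past the limit, 2.53-fold (2.27 to 2.82) higher at 5 wk. Of 11845 genes 11.0% were called higher and 22.1% in either direction, so this count does not set the members apart. Foxo1 was 1.94-fold (1.56 to 2.43) higher. Sgk1 was 0.594 (0.467 to 0.763) of its 2 wk level, and Sgk3 was 1.68-fold (1.06 to 2.83) higher. Neither direction held under every alternative: Sgk1 was at 1.38 when libraries were merged without integration, and Sgk3 at 0.914 then, at 0.9654 as a mean over cells and at 0.897 at 6 wk over 2 wk. The mitochondrial share of late theca-like cells was 9.27% at 5 wk and 3.75% to 5.09% in the other libraries. Late theca-like cells comprised clusters whose mixture differed between ages. The cluster with the most cells held 63 of 169 cells at 2 wk and 492 of 604 at 5 wk. The part of this mixture in the age ratios was not tested. In stromal-like cells no member was past 2-fold at 5 wk, against 5.85% higher, 4.60% lower and 10.5% in either direction of 14472 genes. Foxo1 stood at 1.53 and Pik3ip1 at 1.49 of their 2 wk level. The 6 wk library differed more: in stromal-like cells Sgk1 was 0.400, Foxo1 2.13 and Pik3ip1 2.29 of the 2 wk level, and Irs2 0.586. Sgk1 was low at 6 wk in smooth muscle-like cells too, with 96.0, 104, 75.9, 59.97 and 19.1 CPM, as was Irs2, with 72.4, 174, 152, 102 and 57.9 CPM. Pericyte-like cells, low in Irs2 at 6 wk, held 59.8, 58.0, 79.5, 55.1 and 49.2 CPM of Sgk1, with overlapping counting intervals at 5 and 6 wk, and blood endothelial-like cells held 438 CPM of Sgk1 at 6 wk. The summed stress genes of stromal-like cells were 13558, 17207, 17988, 20317 and 14695 CPM from 2 to 6 wk. In smooth muscle-like cells they were 15983, 22652, 22613, 23486 and 19733 CPM. Col14a1-like cells held 18925, 24692, 23319, 22311 and 15811 CPM, with the lowest value at 6 wk. The part of handling in the 6 wk levels was not tested.

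Of the other pathway genes, 6 were past 2-fold higher and 4 lower of 79 in antral-like cells at 5 wk, beside 6.60% and 5.83% of all genes. The adaptor gene Sh2b2 (5.38), Gadd45a (3.86), Txnip, which limits glucose uptake (3.37), Pdk4 (2.39) and Cdkn1a (2.27) were among the higher ones, and Grb10 (0.344), the PI3K catalytic subunit genes Pik3cg (0.422) and Pik3cd (0.455) and Foxo6 (0.330) were lower. In secondary-like cells 8 were higher and 4 lower of 79, beside 4.07% and 6.28% of all genes, with Pdk4 (4.06) and Txnip (3.79) again higher, whereas Sh2b2 (0.167) was lower there. In late theca-like cells 14 were higher and 3 lower of 77, beside 11.0% and 11.1% of all genes, and in stromal-like cells 4 higher and 2 lower of 81, beside 5.85% and 4.60%.

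Free RNA from granulosa cells can give UMIs in other cells, and hematopoietic-like cells served as its gauge. At 3 wk, with 31 such cells, they held 22.6% of the granulosa-like level of Grb14, 31.8% of that of Foxo1 and 11.6% of that of Pik3ip1. At 4, 5 and 6 wk they held 12.8%, 10.8% and 22.2% of the granulosa-like level of Grb14, 20.01%, 10.4% and 21.7% of that of Foxo1 and 7.09%, 6.89% and 35.6% of that of Pik3ip1. Granulosa marker genes summed to 18.7%, 13.8%, 9.79% and 6.19% of their granulosa-like level in the same cells at 3, 4, 5 and 6 wk. Hematopoietic-like cells may also express these genes, so the shares can overstate free RNA in them. Granulosa marker shares were larger elsewhere, at 18.5% in blood endothelial-like cells at 4 wk and 19.9% in theca-like cells at 5 wk. Stromal-like cells held smaller ones at 3 to 6 wk. The hematopoietic-like shares are thus no upper limit for every class. Levels of other cells up to the hematopoietic-like shares cannot be told apart from free RNA. These take in the stromal-like levels of Foxo1 at 3, 4 and 6 wk and of Pik3ip1 at 6 wk. They also take in Col14a1-like and Cd24a-like levels of Grb14 at 4 to 6 wk and Cd24a-like levels of Foxo1 at 3 to 6 wk. Some granulosa stages lay below the gauge as well: Grb14 in primary-like cells at 3 to 6 wk and in secondary-like cells at 6 wk, and Foxo1 in primary-like cells at 6 wk. For Insr the hematopoietic-like share was 48.3%, 58.0% and 59.0% at 4, 5 and 6 wk. The stromal-like levels of Insr, at 41.6%, 56.0% and 48.2%, and the cycling mesenchymal ones lay below it.

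Over the 35 combinations of granulosa stage and library, the genes most alike in pattern to each member were sought among 6208 genes by the Pearson correlation of log2(CPM + 1). These points share libraries and depth, so the coefficients are descriptions. Grb14 was most like Itih5 (0.920), S100a13 (0.916) and Elmo1 (0.916), and Foxo1 most like Plod2 (0.961). Pik3ip1 was most like Tpm1 (0.970) and Myl6 (0.948), both of them genes of the contractile cytoskeleton, and Irs2 shared these leading genes with coefficients of 0.902 and 0.896. Insr was most like Helz (0.858), Irs1 like Cyr61 (0.849), Sgk1 like Mbnl2 (0.880), Foxo3 like Skil (0.809) and Sgk3 like Uqcrb (0.777). Between members the coefficient was 0.878 for Grb14 and Foxo1, 0.867 for Irs2 and Pik3ip1 and 0.752 for Grb14 and Pik3ip1.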

How the data were processed

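The deposited files hold raw UMI counts per gene and cell for 5 libraries, 1 per age; the authors made them with Cell Ranger (3.1.0 at 2, 3 and 4 wk, 6.0.1 at 5 and 6 wk, per the file headers) on mm10 (GRCm38), without pooling. From these counts, libraries were integrated in Seurat 5.3.0 by anchors from 2000 variable genes (30 principal components, resolution 1), doublets were scored with Scrublet in scanpy 1.11.5 (162 to 555 cells per library, kept in the main result), and clusters were named from at least 3 detected markers. Clusters with under 33.3% of their library's median UMIs or over 40% doublets stayed unnamed. UMIs were summed per group and library and given as CPM. Comparisons needed 20 UMIs over both groups in each library. Calls were 1.5-fold in all 5 libraries, or 2-fold between 2 libraries; with 1 library per age no p-value was computed. All 9 genes are named; from the pathway list at most 4 called genes per role and comparison are named, by highest and lowest median ratio. Some genes of the list are not reported here by name. The genes, lists and rules were chosen with earlier results of these data known. The steps were tested on simulated counts. The alternatives were TMM scaling (edgeR 4.0.16), another CPM denominator, the mean over cells, other fold limits, leaving out each library, filters on cells and doublets, resolution 0.6, pathway genes kept among the variable genes and merging without integration. UMI totals of 93438618 to 144609431 per library leave counting intervals of the width printed beside those ratios that carry an interval.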

Additional observations from a re-analysis of the deposited data

Results flagged for a closer look

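Both SGK kinase genes had age differences of opposite direction in granulosa and theca. Sgk1 at 5 wk over 2 wk was 1.72 in antral-like and 2.14 in secondary-like granulosa cells and 0.594 in late theca-like cells, while Sgk3 was 0.318, 0.244 and 1.68 in the same groups. Each of these rests on 1 library per age, and the difference between the cell types was not tested. The summed stress genes were 7024 CPM at 2 wk and 9360 CPM at 5 wk in antral-like cells. At the same ages they were 4504 and 9518 CPM in secondary-like and 8483 and 13751 CPM in late theca-like cells. The part of handling in these ratios was not tested. The mixture of late theca-like clusters also differed between these ages, and its part was not tested. The theca directions did not hold under every alternative: merged without integration, Sgk1 was at 1.38 and Sgk3 at 0.914, and Sgk3 was at 0.9654 as a mean over cells. Sgk3 in late theca-like over other mesenchymal cells was 0.574 at 2 wk and 0.592 at 3 wk but 1.65 at 4 wk, which was likewise not tested between ages.

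Grb14 in granulosa-like over stromal-like cells was 0.581 at 2 wk but 7.21 at 4 wk, 5.00 at 5 wk and 4.07 at 6 wk; this difference between ages was not tested either. The mix of stages in the granulosa-like class differed between these libraries, with 63 remodeling-like and 464 antral-like of 3102 cells at 2 wk and 1289 and 1531 of 5218 at 4 wk; its part in the difference was not tested.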

How the results depend on the processing

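Of 1224 values recomputed under the alternatives, 1135 stayed within the limits set for them, 88 moved and, of the values that had been called, 1 reversed: Grb14 at 5 wk over 2 wk in secondary-like cells was 4.24 and became 0.836 when the libraries were merged without integration. Values that had not been called turned as well, among them Sgk1 (0.594 to 1.38) and Sgk3 (1.68 to 0.914) between ages in late theca-like cells and Sgk3 in antral-like over secondary-like cells (2.13 to 0.811) under the same alternative, and Pik3ip1 in antral-like over secondary-like cells (2.33 to 0.748) with the pathway genes kept among the variable genes. Merging without integration also left 1 member called in place of 2 for antral-like over secondary-like cells, 1 in place of 3 for remodeling-like over secondary-like, 0 in place of 1 for remodeling-like over antral-like, 1 in place of 4 between ages in secondary-like cells and 2 in place of 1 between ages in late theca-like cells. Leaving out 1 library gave 3 to 6 calls for remodeling-like over secondary-like cells (6 without 2 wk), 1 to 2 for remodeling-like over antral-like (2 without 4 wk) and 0 to 1 for primordial-like over secondary-like (1 without 4 wk). Leaving out 2 and 3 wk together, an alternative chosen after seeing the data, gave 6 for remodeling-like over secondary-like and 2 for remodeling-like over antral-like cells. A filter on cells (1000 genes or more, mitochondrial share below 10%) gave 2 for remodeling-like over antral-like and 2 between ages in late theca-like cells. Leaving out doublets gave 1 call, Pik3ip1, for primordial-like over secondary-like cells. Resolution 0.6 left 2 of the 4 calls in late theca-like cells, and a limit of 2-fold left 1 of the 3 for granulosa-like over stromal-like cells. Between ages, late theca-like cells had 2 calls with TMM scaling, 4 at a limit of 1.5-fold and 5 at 6 wk over 2 wk, and stromal-like cells had 1 at 1.5-fold and 3 at 6 wk over 2 wk. With the pathway genes kept among the variable genes, Pik3ip1 (2.78) and Irs2 (2.11) in remodeling-like over secondary-like cells and Irs2 between ages in antral-like cells (1.97) lost their calls. Single calls were also lost for Irs2 in remodeling-like over secondary-like (2.32) and Pik3ip1 in granulosa-like over stromal-like cells (3.13) with TMM scaling, for Foxo1 in late theca-like cells with another CPM denominator (0.518) and when merged (0.582), for Irs1 in granulosa-like over stromal-like cells as a mean over cells (0.533) and when merged (0.527), for Sgk3 between ages in antral-like cells when merged (0.657), and for Sgk1 between ages in secondary-like cells with the cell filter (1.92), at resolution 0.6 (1.90), when merged (1.66) and at 6 wk over 2 wk (1.33). The cause of these shifts was not tested. Shares of all genes called were taken for the main rules only, so the counts of calls under the alternatives stand without them.

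Grb14 in antral-like and in remodeling-like over secondary-like cells, Irs2 and Sgk1 in late theca-like cells, Foxo1 in granulosa-like over stromal-like cells, and the age calls of Grb14 and Pik3ip1 in antral-like, Sgk3 in secondary-like and Grb14 in late theca-like cells kept their call under every alternative run, although the antral-like age ratios moved between 2.90 and 6.91 for Grb14 and between 2.80 and 15.1 for Pik3ip1. No paired analysis was possible because, between ages, each age is 1 library with no replicate number; the stage and class ratios were taken within each library. Low counts limit single ratios: 9 UMIs of Sgk3 in remodeling-like cells at 2 wk, 10 of Pik3ip1 in late theca-like cells at 2 wk and 7 of Irs1 in primordial-like cells at 5 wk. Few UMIs also stood behind Sgk3 in an antral-like cluster at 5 wk, at 1.46 CPM in 109 cells.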
